A study of Mus musculus with 66 samples.

Results

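Expression of 10 genes of fibroblast growth factor (FGF) signalling was followed in ventral spinal progenitors grown in culture from mouse embryonic stem (ES) cells. They are the receptors Fgfr1, Fgfr2 and Fgfr3, the secreted ligands Fgf8 and Fgf15, the feedback inhibitors Spry1, Spry2, Spry4 and Dusp6, and the transcription factor gene Etv4. All 10 were taken by symbol from the deposited table, which holds 24410 genes in 66 libraries. The choice of these genes named an early loss of FGF output and a late rise of Fgfr3, so their courses over the days are given as a description, whereas the comparisons between domains, sort gates and genotypes were tested.

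The study sampled mouse ES cell differentiation at days 5, 7, 9 and 11 (D5 to D11). At each day it sorted progenitors of 3 domains, labelled p1 (p0-p1 in the series text), p2 and pM (the pMN domain, the source of motor neurons), and sequenced their polyA RNA. Cells were wild type (WT, 37 libraries) or carried a mutation labelled only MUT (29 libraries), with no mutated gene given in the labels. They were also sorted as NFIA-negative (NFIAn) or NFIA-positive (NFIAp), NFIA being a transcription factor that appears late in spinal cord progenitors. All MUT groups and WT groups at D5 and D7 were NFIAn, WT groups at D11 were NFIAp, and at D9 the WT p2 and pM cells were sorted through both gates while WT p1 was NFIAn. Every culture, WT and MUT, had received 10 ng/ml bFGF at plating, 5 µM of the GSK3 inhibitor CHIR99021 on day 2, and 100 nM retinoic acid (RA) with 10 nM Smoothened agonist (SAG) on day 3. From day 5 the medium held 10 nM SAG and no added FGF, so the libraries from D7 on come from cells that had left the FGF medium. Whether the D5 cells had already left it does not follow from this. Cells were fixed in glyoxal and stained before sorting. Replicates are not described as separate cultures in the labels, and the p-values cover the spread among the sequenced libraries, which may be technical.

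The 26 groups held 3 libraries in 15 cases, 2 in 10 cases, and 1 in MUT D9 p2. Recovered reads per library ranged from 20.3 M to 30.8 M (megareads), apart from 8.74 M in MUT D5 p2 replicate 2. In 18 libraries (D7 replicate 3 and D9 replicates 2 and 3) the deposited values summed to 26.6 M to 40.2 M, against 17.9 M to 25.5 M in the other 48, so results that rest on D7 or D9 are given with and without them where a call changes. The pM and p1 labels matched Olig2 and Dbx1, while Foxn4 alone did not set p2 apart from both. Nkx6-1 read 103 to 581 normalised counts in p2 and at most 34.9 in p1, but 128 to 654 in pM. The p2 libraries thus differed from p1 in Nkx6-1 and Dbx1 and from pM in Olig2, without overlap. Foxn4, a gene of the p2 lineage, ranged from 10.0 to 732 normalised counts in p2 (median 317) and reached 104 in p1 and 79.6 in pM. Olig2, the pMN factor, lay between 658 and 4544 normalised counts in pM and at most at 173 elsewhere, and Dbx1, expressed at the border of p0 and p1, lay between 3032 and 13683 in p1 and at most at 2074 elsewhere. Neuronal markers (9 genes) had a median sum of 3054 normalised counts at D5 and 28374 at D11, mesenchymal markers (10 genes) ranged from 154 to 936 at D5 and from 969 to 7667 at D11, and neuromesodermal and mesodermal markers (8 genes) went from a median sum of 1191 at D5 to 57.9 at D11. The median sum was also higher at D11 than at D5 for neural progenitor markers (8 genes, 106053 against 22514.5) and astroglial markers (8 genes, 16589 against 9608). These shifts run with the days, and their part in the courses below was not tested. In bulk RNA, fewer cells of a type and less RNA per cell cannot be told apart.

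FGF ligands bind receptor tyrosine kinases at the cell surface with heparan sulfate as a cofactor and activate the RAS-ERK cascade. The cascade switches on its own brakes, the Sprouty proteins and the ERK phosphatase DUSP6, together with ETS factors such as ETV4, so that these transcripts are widely used as a readout of FGF activity. In the embryo, FGF8 from the caudal end keeps the growing spinal cord immature, and retinoic acid opposes it. Later, FGFR3 marks ventricular zone progenitors of the spinal cord that give rise to astrocytes.

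The genes lie apart in the genome (GRCm38, GENCODE M21): Fgfr3 at chr5:33721674-33737068 (+), Fgfr1 at chr8:25513654-25575718 (+), Fgfr2 at chr7:130162451-133123350 (-), Fgf15 at chr7:144896531-144900953 (+), Fgf8 at chr19:45736798-45742915 (-), Spry1 at chr3:37639947-37644598 (+), Spry2 at chr14:105891947-105896819 (-), Dusp6 at chr10:99263231-99267489 (+) and Etv4 at chr11:101769742-101785371 (-). Upstream sequence from the RefSeq promoter table (GRCm38.p6) was at hand for 4 members and is shown for 3 that took opposite courses: Dusp6, which was high early, and Fgfr3 and Spry2, which were high late. The windows end at the base before the annotated gene and are chr10:99262981-99263230 (+) for Dusp6, chr14:105896820-105897069 (-) for Spry2 and chr5:33721474-33721673 (+) for Fgfr3. Capitals mark GGAA or its complement TTCC, the core bound by ETS factors such as ETV4, searched on both strands.
Dusp6: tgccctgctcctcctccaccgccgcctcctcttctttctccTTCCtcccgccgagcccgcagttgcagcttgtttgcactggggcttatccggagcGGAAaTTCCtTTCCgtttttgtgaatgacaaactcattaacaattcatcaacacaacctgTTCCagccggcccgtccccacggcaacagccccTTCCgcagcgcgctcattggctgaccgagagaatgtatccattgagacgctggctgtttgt
Spry2: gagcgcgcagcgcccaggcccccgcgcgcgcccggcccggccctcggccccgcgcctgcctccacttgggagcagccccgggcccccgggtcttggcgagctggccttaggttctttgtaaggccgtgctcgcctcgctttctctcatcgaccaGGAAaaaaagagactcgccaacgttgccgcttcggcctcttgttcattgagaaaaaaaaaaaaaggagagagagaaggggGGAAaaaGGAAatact
Fgfr3: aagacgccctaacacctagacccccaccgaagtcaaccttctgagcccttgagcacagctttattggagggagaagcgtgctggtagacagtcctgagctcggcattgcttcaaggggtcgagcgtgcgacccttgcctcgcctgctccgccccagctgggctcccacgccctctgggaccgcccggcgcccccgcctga
The Dusp6 window held 6 matches, the Spry2 window 3, the Spry1 window 1, and the Fgfr3 window 0. The core is common: 93.5% of 32851 promoters of 250 bases held it, with a median of 3 matches, and 89.2% of windows of 200 bases. The longer ETS core CCGGAA, in 12.03% of promoters, was in none of the 4 windows, nor were TGAATGAA (1.08%) or TGAATGGA (1.01%), the octamers of the ERK-controlled repressor Capicua.

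Fgfr3 rose in every domain and became the leading receptor transcript. In WT p1 its normalised counts were 1032, 485 and 607 at D5, 2013, 1606 and 670 at D7, 1901, 975 and 1165 at D9, and 3087 and 1550 at D11. In WT p2 they were 1275, 978 and 902 at D5, 1612, 1707 and 799 at D7, 1322, 1021 and 1601 in NFIAn and 2071, 1974 and 1874 in NFIAp cells at D9, and 2849 and 3084 at D11. In WT pM they were 849 and 705 at D5, 3829, 4198 and 1692 at D7, 3529 and 2966 in NFIAn and 2852, 2570.0 and 2825 in NFIAp cells at D9, and 2395 and 4595 at D11. All 6 WT D11 libraries lay above all 8 WT D5 libraries. In pM all 3 libraries at D7 were already above both D5 libraries, with a D7 minus D5 difference of 1.96 ± 0.45 (log2 ± SE), while in p1 and p2 the D7 and the D9 NFIAn groups overlapped the D5 group. A test of whether the D7 minus D5 change of Fgfr3 differed among the WT domains gave an adjusted p of 0.96 (limma F test, unadjusted p 0.032), so a difference in timing was not established.

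The mutant cells showed the rise as well. Over the mean of the 3 domains Fgfr3 went from 846 to 2927 normalised counts in WT (log2 difference 1.77 ± 0.27) and from 914 to 3814 in MUT (1.91 ± 0.26). The highest value of any library was 8061 in MUT D11 pM replicate 3, whose other replicate was at 4250. Divided by exon length, so that receptors can be compared with each other, Fgfr3 held 25.7% ± 10.5 (SD, n = 3) of the receptor transcripts in WT p1 at D5, 34.9% ± 2.7 (n = 3) in p2 and 31.4% ± 1.7 (n = 2) in pM. At D11 its share was 62.5% ± 14.8, 68.6% ± 0.7 and 75.5% ± 4.8 (n = 2 each). In pM the share stood at 74.3% ± 1.7 (n = 3) by D7.

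**Figure D1:**
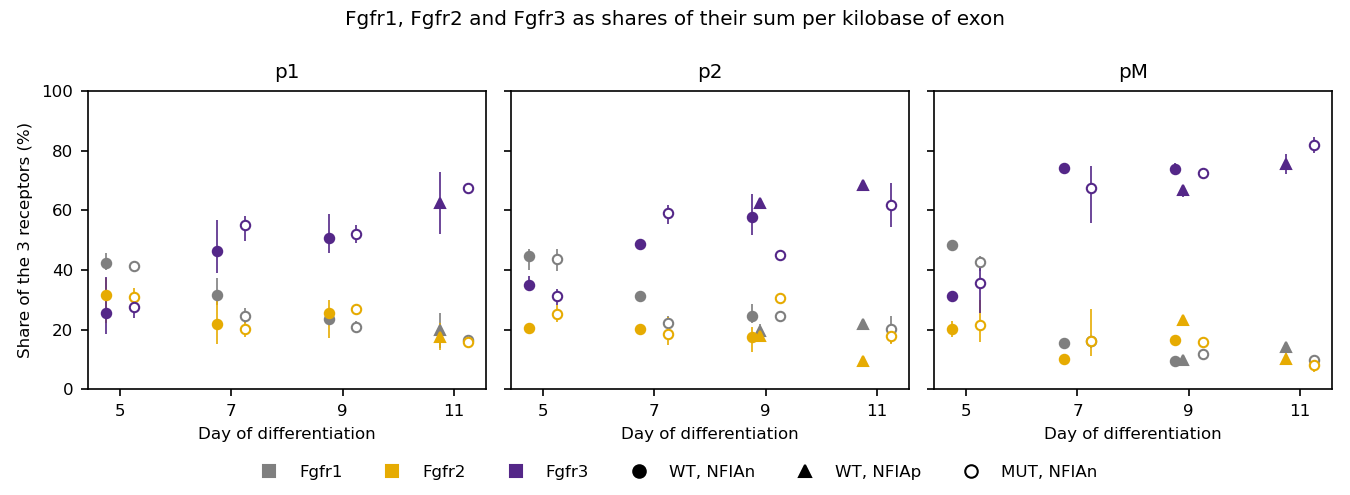
Share of Fgfr1, Fgfr2 and Fgfr3 in their sum per kilobase of exon (%, y axis) by day (x axis), in p1, p2 and pM. Points are group means and bars run from the lowest to the highest library. Filled symbols are WT, open symbols MUT, and triangles NFIAp. Fgfr3 went from 25.7 to 34.9% of the sum at D5 to 62.5 to 75.5% at D11 in WT.

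Fgfr1, the receptor that dominates in early neural tissue, gave way. The 8 WT libraries at D5 ranged from 1502 to 1896 normalised counts (median 1716), the 8 NFIAn libraries at D9 from 490 to 1067 (median 707), and the 6 at D11 from 724 to 1444 (median 1037). All D9 and D11 libraries were below all D5 libraries, and the D11 minus D5 difference was -0.73 ± 0.22 in WT and -0.79 ± 0.21 in MUT (log2 ± SE). Its share of the receptors went from a median of 46.2% at D5 to 18.4% at D11 in WT. The difference from D5 to D7 was -0.66, and -0.30 without the libraries of high total. Fgfr2 ranged from 664 to 1572 at D5 and from 577 to 960 at D11 in WT, ranges that overlap, with a difference of -0.41 ± 0.19 that did not pass. Over p2 and pM, Fgfr2 was the 1 receptor that passed from D7 to NFIAp cells at D9, upward, and from there to D11, downward. The rise was 0.62, and 0.34 without the libraries of high total. Its call was lost in 4 of 12 fits with a single library left out and in 5 of 9 alternative fits. The fall was -0.78, and -0.86 without the libraries of high total. Within pM Fgfr2 was lower at D11 (579 and 714) than in NFIAp cells at D9 (1551, 1228 and 1371). The call for that fall in pM was lost whichever single library was left out (-1.25 to -0.95).

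**Figure D2:**
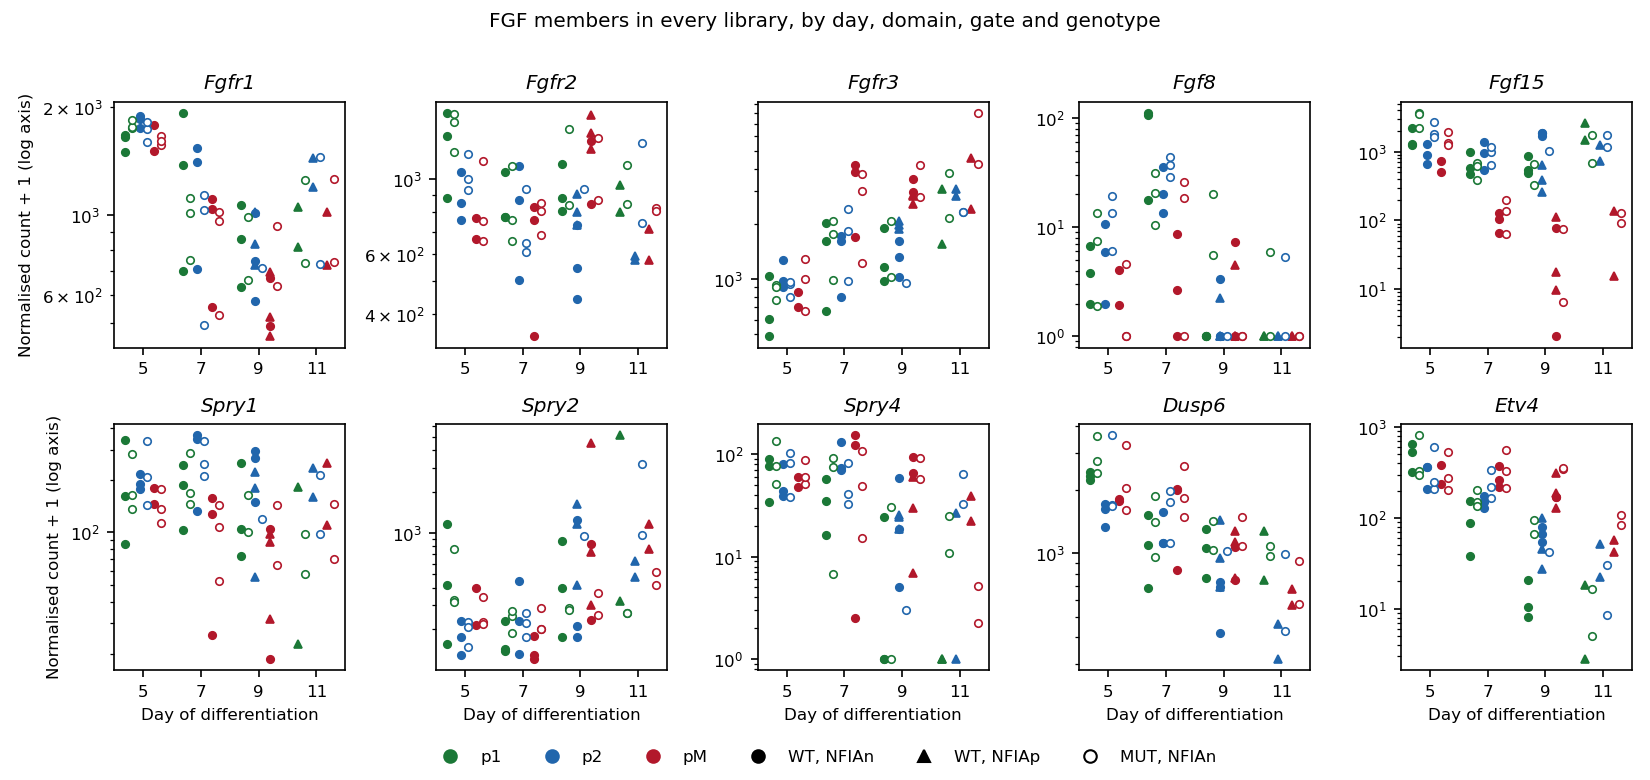
Normalised count plus 1 (log axis) of the 10 genes in all 66 libraries against day. Colour gives the domain (p1 green, p2 blue, pM red), filled circles WT NFIAn, triangles WT NFIAp and open circles MUT, each point being a library. Fgfr3 is high late and Etv4 and Dusp6 are high at D5, whereas Fgf15 separates pM from p1 and p2 after D5.

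Fgf8, the ligand of the caudal growth zone, was detected mainly at D7. It reached 10 normalised counts in 17 of 66 libraries (3 at D5, 13 at D7, 1 at D9 and 0 at D11) and was 0 in 27, so it entered the tests mainly through D7. In WT p1 it read 2.78, 5.74 and 0.98 at D5, 16.7, 105 and 111 at D7, and 0 in all 3 libraries at D9. Against a floor of 3 reads per library, WT p1 at D9 was at least 22.4-fold lower than at D7. All 6 WT libraries at D11 were at 0, and no fold is given against D5 because the D5 mean (3.47) is itself at the floor. In WT p2 the D7 values were 12.6, 19.0 and 34.8, and in WT pM they were 7.67, 1.65 and 0. In MUT the D7 values were 9.58, 19.4 and 30.6 in p1, 36.3, 28.1 and 42.9 in p2, and 24.85, 17.4 and 0 in pM. MUT p2 had read 18.4, 12.5 and 5.04 at D5, all below its D7 libraries. MUT p1 still read 4.57 and 19.25 at D9, where all 3 WT p1 libraries were at 0 (adjusted p = 0.71). The D7 libraries of WT p1 at 105 and 111 were the highest of the series.

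Fgf15, the mouse counterpart of human FGF19 and a ligand expressed in the embryonic neural tube, separated pM from the other domains after D5. In WT p1 its normalised counts were 1231, 1275 and 2197 at D5, 569, 977 and 473 at D7, 858, 491 and 533 at D9, and 1469 and 2617 at D11. In WT p2 they were 884, 658 and 1301 at D5, 1363, 970 and 535 at D7, 1682, 1847 and 1838 in NFIAn and 384, 646 and 257 in NFIAp cells at D9, and 726 and 1236 at D11. In WT pM they were 509 and 721 at D5, 126, 104 and 64.5 at D7, 1.05 and 75.8 in NFIAn and 16.8, 8.83 and 111 in NFIAp cells at D9, and 14.7 and 134 at D11. In pM all later libraries were below both D5 libraries. In p1 all D7 and D9 libraries were below all D5 libraries, and the D11 libraries overlapped D5 again. In p2 D7 and D11 overlapped D5, while at D9 the NFIAn libraries were all above D5 and the NFIAp libraries all below it. The D11 minus D5 log2 difference was 0.38 ± 0.87 in p1 and 0.06 ± 0.87 in p2, whereas pM gave -3.72 ± 0.95. The pM value depends on WT D11 pM replicate 2 and is -2.17 without it. MUT gave -1.92 ± 0.50 over the 3 domains, made up of -1.50 ± 0.87 (p1), -0.48 ± 0.87 (p2) and -3.78 ± 0.87 (pM).

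Dusp6, the ERK phosphatase, fell in all 3 domains. In WT p1 it read 2230.4, 2322 and 2437 at D5 and 743 and 1277 at D11. In WT p2 it read 1713, 1339 and 1623 at D5 and 315 and 463 at D11, and in pM 1762 and 1805 at D5 and 569.8 and 677 at D11. Every D11 library was below every D5 library. The group means stepped down at different days, but no F test of the day differences among domains called Dusp6. The mean in p1 was 2329.8 at D5, 1097 at D7, 1041 at D9 and 1010.0 at D11, so most of its difference lay before D7. That step in p1 was -1.16 on the log2 scale. Without the libraries of high total it was -0.86 and no longer passed (limma, adjusted p = 0.15). The call for that step was also lost in 5 of 6 fits with a single library left out. The p2 mean was 1558 at D5 and 1269 at D7, then at D9 613 (NFIAn) or 1028 (NFIAp), and 389 at D11. The pM mean was 1784 at D5 and 1617 at D7, then at D9 907 (NFIAn) or 1053 (NFIAp), and 624 at D11. The D11 minus D5 difference was -1.60 ± 0.23 in WT and -1.61 ± 0.23 in MUT (log2 ± SE).

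Etv4, an ETS factor gene and ERK target, fell in all 3 domains. In WT p1 it read 648, 323 and 535 normalised counts at D5, 86.1, 153 and 36.9 at D7, 9.34, 7.05 and 19.9 at D9, and 17.3 and 1.81 at D11. In WT p2 it read 358, 205 and 361 at D5, 147, 173 and 129 at D7, 53.6, 77.6 and 65 in NFIAn and 26.3 to 98.8 in NFIAp cells at D9, and 21.4 and 50.3 at D11. In WT pM it read 233 and 382 at D5, 217, 263 and 375 at D7, 169.9 and 168 in NFIAn and 189, 315 and 128 in NFIAp cells at D9, and 41.1 and 56.9 at D11. In NFIAn cells the fall by D9 was thus deepest in p1 and least in pM, with p2 between them. The fall from NFIAp cells at D9 to D11 over p2 and pM did not pass. The change from D5 to D9 in NFIAn cells was called as different among the WT domains (limma F test, adjusted p = 0.0048). How far that call depends on the libraries of high total is given below. The change from D5 to D11 was not called as different, and that test does not address when the fall came. Over the 3 domains the D11 minus D5 difference was -3.94 ± 0.39 in WT and -3.85 ± 0.37 in MUT.

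The Sprouty genes did not move together. Spry4 went down: the 8 WT libraries at D5 ranged from 33.5 to 88.1 normalised counts and the 6 at D11 from 0 to 38.4, overlapping ranges with a difference of -3.37 ± 0.80 over the 3 domains. In WT p1 both D11 libraries were at 0, which against the floor is at least 22.2-fold lower than the D5 mean of 65.98. In WT pM the ranges were 47.1 to 58.9 at D5 and 21.5 to 38.4 at D11, and pM stood at 121 and 152 in 2 of its D7 libraries, with 1.54 in the third. Spry1 ranged from 85.2 to 338 at D5 and from 21.7 to 249.8 at D11 in WT, which overlap, with a difference of -0.45 ± 0.45. Spry2 went the other way and scattered widely. It ranged from 129 to 1158 at D5 (median 220.4), from 120.3 to 444 at D7 (median 142), from 300.1 to 4557 in NFIAp cells at D9 (median 943) and from 319 to 5154 at D11 (median 689.8). Its D11 minus D5 difference of 1.65 ± 0.50 was 0.99 without WT D11 p1 replicate 3, the library at 5154, and no longer passed the test.

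**Figure D3:**
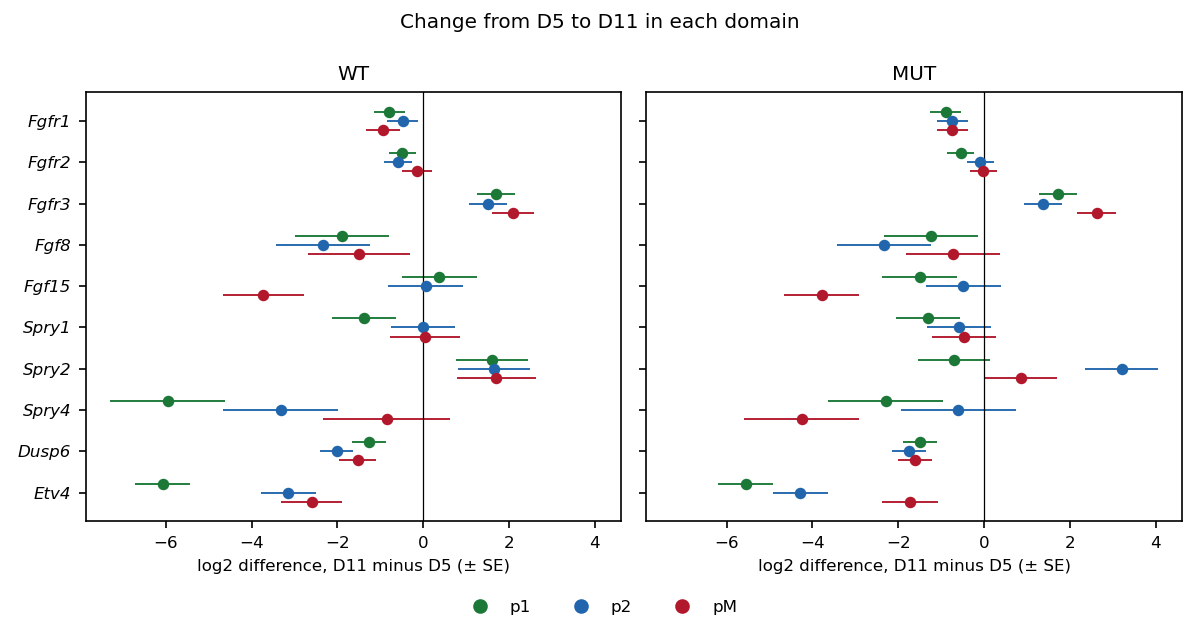
Difference from D5 to D11 on the log2 scale (x axis, ± SE) for each of the 10 genes in p1, p2 and pM, in WT and MUT. Fgfr3 lies above 0 and Dusp6 and Etv4 below 0 in all domains of both genotypes, and Fgf15 in WT lies below 0 in pM only.

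Across the whole course (limma on log2 of the normalised count plus 1, Benjamini-Hochberg adjustment over 15714 genes, threshold 0.05), 7 of the 10 genes passed the test between D5 and D11 in WT, 2 upward (Fgfr3, Spry2) and 5 downward (Fgfr1, Fgf8, Spry4, Dusp6, Etv4). Of all genes tested 48.0% passed. Fgf8 entered the tests through D7 and lay near the floor at both D5 and D11, and its call was lost with a pseudocount of 8 (adjusted p = 0.17) and with libraries of the same genotype, day and number treated as correlated. In MUT 6 passed, Fgfr3 upward and Fgfr1, Fgf15, Spry4, Dusp6 and Etv4 downward, against 46.0% of all genes. Within domains, 4 members passed in p1 (27.7% of all genes), 3 in p2 (25.8%) and 4 in pM (20.4%), where Fgfr3, Dusp6 and Etv4 were among them each time, joined by Spry4 in p1 and Fgf15 in pM. The pM count dropped to 1 (Fgfr3) if WT D11 pM replicate 2 was left out and to 2 if WT D5 pM replicate 3 was. Fgfr3 lost its call in p1 without WT D11 p1 replicate 2 (1.20), in p2 without WT D11 p2 replicate 2 (1.57) or 3 (1.45), and in pM without WT D11 pM replicate 3 (1.63), and Dusp6 lost its call in p1 without WT D11 p1 replicate 2 (-0.87). Between successive days in WT, 6 members passed from D5 to D7 (19.6% of all genes) and 4 from D7 to D9 in NFIAn cells (14.4%). In p2 and pM, 3 passed from D7 to NFIAp cells at D9 (14.8%) and 2 from there to D11 (10.1%). Fgf8 was among those called in each step into or out of D7. It entered the tests mainly through D7, so those calls were partly fixed by the filter. These step counts were less stable: D5 to D7 gave 3 without WT D5 pM replicate 2 or WT D7 p1 replicate 3, and D9 to D11 gave 0 without WT D11 p2 replicate 2 or WT D11 pM replicate 2 and 1 without WT D11 p2 replicate 3. From D7 to D9, the NFIAn count was 2 without WT D7 p1 replicate 1 or 2, WT D7 p2 replicate 1, WT D7 pM replicate 1 or 2, WT D9 p1 replicate 3 or WT D9 p2 replicate 2, and the NFIAp count was 5 without WT D7 pM replicate 3. The median log2 difference of the 10 genes from D5 to D11 in WT was -0.92, and over all genes tested it was 0.04. Since the days entered the choice of the genes, these counts and medians are a description only.

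Between domains Fgf15 and Etv4 differed in opposite directions. Averages over the days took NFIAn cells at D9 and left out the NFIAp cells of that day, while WT cells at D11 were NFIAp. Averaged over the days in WT, Fgf15 was lower in pM than in p2, with mean counts of 206 and 1168 and a log2 difference of -3.83 ± 0.43 (adjusted p = 1.6e-08), the 1 member that passed there against 2.46% of all genes. Without the 18 libraries of high total the difference was -4.49 (adjusted p = 5.6e-11), and over the alternatives its adjusted p ranged from 6.8e-16 to 0.00069. Without WT D9 pM NFIAn replicate 1 the count was 2, and with the replicate number as a block within day it was 5, Fgf15 still among them. At D5 the Fgf15 libraries of pM (509 and 721) overlapped those of p2 (658 to 1301), and from D7 on every pM library, at 134 or less, was below every p2 library, at 257 or more. In MUT the pM minus p2 comparison gave Fgf15 (-3.15 ± 0.47), Etv4 (1.53 ± 0.35) and Fgfr3 (0.96 ± 0.24), 3 of 10 against 3.26% of all genes. Fgfr3 no longer passed without MUT D11 pM replicate 3 (0.84, adjusted p = 0.055, range 0.0028 to 0.055 over the libraries left out).

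From p1 to pM in WT, 4 members passed, against 6.19% of all genes. Fgf15 was lower in pM (-3.77 ± 0.43, adjusted p = 9.7e-09), and Etv4 (1.93 ± 0.32, adjusted p = 3.5e-05), Fgfr3 (0.84 ± 0.22, adjusted p = 0.014) and Spry4 (2.40 ± 0.67, adjusted p = 0.019) were higher. Fgf15 and Etv4 passed without each library in turn. Fgfr3 did not pass without WT D11 p1 replicate 3 (0.71) or WT D11 pM replicate 3 (0.72), where the adjusted p over the libraries left out reached 0.071. Spry4 did not pass without WT D9 pM NFIAn replicate 3 (2.34) or WT D11 pM replicate 3 (2.30), where it reached 0.052. In MUT 4 members passed from p1 to pM, against 6.64% of all genes: Fgf15 (-2.75 ± 0.43), Etv4 (1.53 ± 0.32), Fgfr3 (0.77 ± 0.22) and Fgf8 (-1.94 ± 0.55). Fgfr3 lost the call there without MUT D5 pM replicate 1, MUT D7 p1 replicate 3, MUT D7 pM replicate 1 or 2, MUT D9 p1 replicate 3, MUT D9 pM replicate 1, MUT D11 p1 replicate 2 or MUT D11 pM replicate 3 (0.64 to 0.72). Fgf8 lost it without MUT D9 p1 replicate 3 (-1.71) or MUT D11 p1 replicate 3 (-1.62). Its call was also lost with a pseudocount of 8, with only the compared groups fitted, and when the high-total libraries were dropped (-1.25). Fgf8 entered the tests mainly through D7. Outside D7 its MUT group means lay between 0 and 11.99 normalised counts, so this difference rests partly on values near the floor.

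Between p1 and p2 little passed. In WT Etv4 alone did, higher in p2 by 1.23 ± 0.31 on the log2 scale (adjusted p = 0.021, 1.83% of all genes passing), and its adjusted p ranged from 0.0014 to 0.26 over the alternatives. The mean counts over the days went the other way, 139.7 in p2 and 154 in p1, with p1 higher at D5 and lower at D7, D9 and D11. The call was lost without WT D7 p1 replicate 3 (1.09), WT D11 p1 replicate 3 (0.89) or WT D11 p2 replicate 3 (1.08), and the count was 2 without WT D5 p1 replicate 1 or WT D11 p1 replicate 2. In MUT 0 members passed between p1 and p2 by limma, edgeR or DESeq2, 0 had an unadjusted p under 0.05, and 0.598% of all genes passed.

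**Figure D4:**
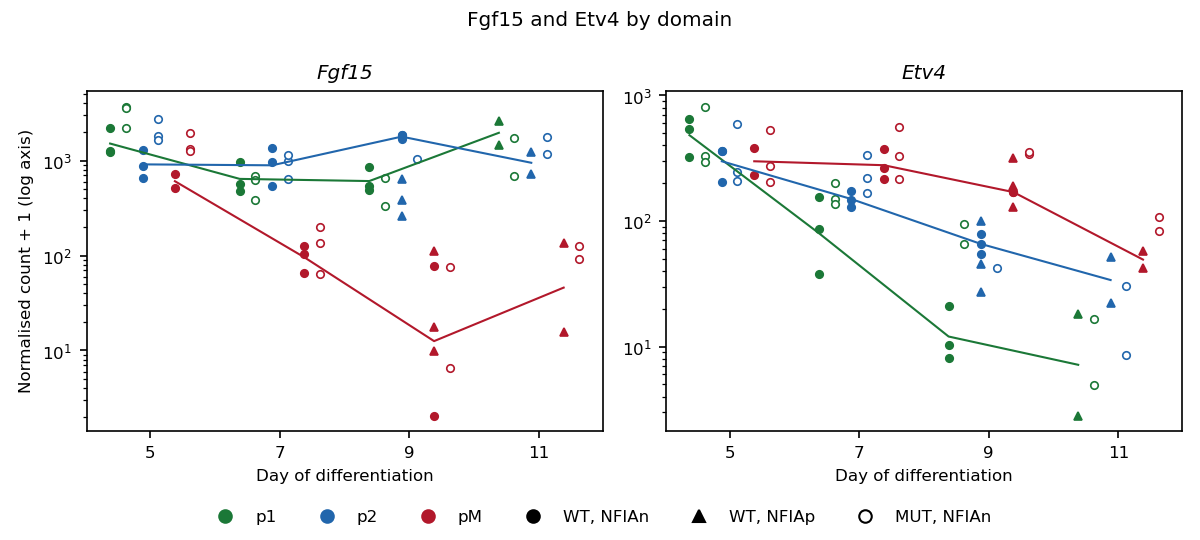
Fgf15 and Etv4 in every library (normalised count plus 1, log axis) by day, with lines through the WT geometric means of each domain (NFIAn, and NFIAp at D11). In WT, Fgf15 in pM is at 134 or less from D7 on, and Etv4 in NFIAn cells at D9 is lowest in p1 and highest in pM.

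Whether the course itself differed among domains was tested with a limma F test on the day differences. From D5 to D9 in WT NFIAn cells 2 members passed, against 0.916% of all genes: Fgf15 (adjusted p = 0.0037) and Etv4 (adjusted p = 0.0048). For Fgf15, p1 went from 1231 to 2197 at D5 to 491 to 858 at D9, p2 from 658 to 1301 to 1682 to 1847, and pM from 509 and 721 to 1.05 and 75.8. For Etv4, p1 read 7.05 to 19.9, p2 53.6 to 77.6, and pM 168 and 169.9. The Fgf15 p rose to 0.18 without WT D9 pM NFIAn replicate 1, the library at 1.05, and the Etv4 p rose to 0.21 without the 18 libraries of high total, which leave 1 library per domain at D9, their ranges over the alternatives being 3.8e-06 to 0.16 and 0.00024 to 0.21. From D5 to D11 in WT 0 members passed by limma, edgeR or DESeq2 (0.891% of all genes by limma), with 3 at an unadjusted p under 0.05 (Fgf15, Spry4, Etv4). That count was 1 without WT D11 p1 replicate 2 or WT D11 pM replicate 3. In MUT from D5 to D11 Etv4 passed (adjusted p = 0.046, 1.04% of all genes), its D11 libraries being at 3.99 and 15.7 in p1, 7.62 and 29.3 in p2 and 81.8 and 106 in pM.

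Between the NFIA gates at D9 no call was made in the fit of group means. Comparing NFIAp with NFIAn cells of WT p2 and pM, 0 of 10 members passed by limma, edgeR or DESeq2, 2 had an unadjusted p under 0.05 (Fgfr2 and Spry2), and 0.204% of all genes passed. With the replicate number as a block within day Spry2 and Dusp6 passed, as did 543 of 15714 genes. In p2, Fgf15 was at 384, 646 and 257 in NFIAp and at 1682, 1847 and 1838 in NFIAn cells, groups that do not overlap, with a log2 difference of -2.16 ± 0.78 and an adjusted p of 0.34. Spry2 was at 1160.4, 418 and 1636 in NFIAp and at 1241, 210.1 and 173 in NFIAn cells of p2, and at 4557, 300.1 and 725 in NFIAp and 831 and 231 in NFIAn cells of pM. Both gates overlap in each domain, and the difference over both was 1.28 ± 0.56 with an adjusted p of 0.50. Fgfr3 differed by 0.19 ± 0.30. Nfia itself read 408 to 2305 in these NFIAp libraries and 77.8 to 670.2 in the NFIAn libraries, so at the RNA level the gates overlapped.

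Between MUT and WT no member passed on any day in the fit of group means. With the replicate number as a block within day, Fgfr1 and Dusp6 passed at D7, where 2275 of 15714 genes did, and 0 members passed at D5, D9 and D11. Without the block, at D5 the count was 0 by limma, edgeR and DESeq2, with 1 at an unadjusted p under 0.05, and 0.458% of all genes passed. It was likewise 0 by all 3 tools at D7 (0 unadjusted, 2.03% of all genes), at D9 (2 unadjusted, 0.700%) and at D11 (1 unadjusted, 4.14%). For a difference between genotypes in the change from D5 to D11, 0 members passed by all 3 tools and 0 unadjusted (0.770% of all genes). For Fgfr3 that difference of changes was 0.14 ± 0.37, for Dusp6 -0.01 ± 0.33 and for Etv4 0.09 ± 0.54 on the log2 scale, with errors that do not show equality. At D11 the WT libraries were NFIAp and the MUT libraries NFIAn, so gate and genotype cannot be told apart there, and Nfia RNA read 1096 to 3639 in the former and 1014 to 2177 in the latter.

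Some groups of MUT and WT did not overlap, with no call in the fit of group means. Groups of 1 to 3 libraries can separate by sampling alone, and the share of all genes that do so was not counted. At D5 Fgf15 read 3680.0, 2220.2 and 3590 in MUT p1, 1816, 1632 and 2718 in p2 and 1334, 1250.0 and 1929 in pM, and each MUT library was above every WT library of its domain. The mean difference was 1.15 ± 0.47 (adjusted p = 0.44), and it passed with only the compared groups fitted or without the libraries of high total. By D7 the genotypes overlapped in every domain. At D9 Etv4 in p1 read 64.8 and 94.4 in MUT and 9.34, 7.05 and 19.9 in WT, without overlap (2.72 ± 0.65, adjusted p = 0.17). In pM it read 341 and 353 in MUT and 168 and 169.9 in WT, while in p2 the 1 MUT library, at 41.2, lay below the WT libraries. Over the 3 domains the D9 difference of Etv4 was 1.04 ± 0.42 (adjusted p = 0.37), and that of Dusp6 was 0.52 ± 0.26 (adjusted p = 0.54). At D11, where the gates also differ, Spry4 read 9.97 and 24.0 in MUT p1 against 0 in both WT libraries (adjusted p = 0.26), and 31.6 and 62.8 in MUT p2 against 0 and 25.9 (adjusted p = 0.77). In pM the order was the other way, with 1.22 and 4.16 in MUT against 21.5 and 38.4 in WT (adjusted p = 0.37).

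The wider pathway was scored over a list of its other genes, of which 90 passed the filter on low values. From D5 to D11 in WT 18 passed upward and 22 downward, against the 48.0% of all genes given above. Among feedback inhibitors 1 rose and 5 fell of 14 tested, among RAS to ERK genes 1 rose and 4 fell of 14, and among heparan sulfate genes 3 rose and 5 fell of 17. All 3 changes among the 4 intracellular FGF homologous factors were upward. The secreted ligand gene Fgf3 fell from 75.0 to 10.1 normalised counts (-3.65 ± 0.60), and Sdc1, a heparan sulfate proteoglycan of the cell surface, from 4121 to 836 (-2.35 ± 0.13). Fgfbp3, an FGF-binding protein, rose from 1568 to 7840.2 (2.45 ± 0.34), and the immediate early gene Fos from 1323 to 7139 (2.49 ± 0.52).

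From p2 to pM in WT 1 of the 90 was higher and 4 lower, where 2.46% of all genes passed. The ETS factor gene Etv1 was higher in pM (449 against 217, 0.89 ± 0.22). Lower were Ccnd1, cyclin D1, at 1205 against 5967 (-2.69 ± 0.18), Sulf1, a heparan sulfate 6-O-endosulfatase, at 55.3 against 249.2 (-2.20 ± 0.47), and Phlda1 at 163 against 438 (-1.50 ± 0.19). Between genotypes, 0 of the 90 passed by limma at D5 (0.458% of all genes) and D9 (0.700%). At D7, where 2.03% of all genes passed, Il17rd, an antagonist of FGF signalling, was higher in MUT (179 against 95.0, 0.98 ± 0.20) and so was Rasa1, a RAS inactivator (1131 against 663, 0.75 ± 0.17). At D11 (4.14% of all genes), where the gates differ as well, Sdc1 was higher in MUT (0.76 ± 0.13) and Fos (1788 against 7139), Egr1 (-1.57 ± 0.44), Gab1 (-0.67 ± 0.19) and Dusp14 (-0.65 ± 0.18) were lower.

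Genes among those most like each of 5 members over the 26 group means are given by Pearson's r, as a description in which the means share libraries, days and depth. They were Fat3 (0.93), Cdc42se1 (0.92) and Dtx3 (0.91) for Fgfr3, Ifitm1 (0.94), Fkbp9 (0.93) and Myc (0.93) for Fgfr1, Mtf2 (0.93), Baiap2l1 (0.92) and Gtpbp10 (0.92) for Dusp6, Pappa (0.87) and Grrp1 (0.86) for Etv4, and Sept3 (0.89), Top1mt (0.88) and Irx3 (0.86) for Fgf15. Among the members, Etv4 went with Spry4 (0.72) and Dusp6 (0.68), and Fgfr3 ran against Fgf15 (-0.68) and Dusp6 (-0.60).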

How the data were processed

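PolyA RNA from sorted, glyoxal-fixed cells was measured in 66 libraries. The deposited values are counts per gene divided by DESeq2 size factors (a normalised signal), with the mm10 genome, per the submitters' processing notes. Versions and the aligner are not given in the sources used here. Every value was a whole number of reads to within 0.01, so reads were recovered for the count-based alternatives, and 0 columns were left unmapped. Library pairs within groups all differed beyond sampling noise.

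Genes with at least 10 normalised counts in 2 libraries (15714, all 10 members) were tested with limma 3.58.1 (trend) in R 4.3.3 on log2(value + 1), with 26 group means over all libraries, two-sided, Benjamini-Hochberg threshold 0.05. A log2 difference on this scale understates changes of low genes. edgeR 4.0.16 and DESeq2 1.42.0 were alternatives. Scripts were tested on simulated data. Shares of receptors used exon length from GENCODE M21. Named genes were all 10 members, up to 4 pathway genes per direction with the largest difference at a mean of at least 50, and the 3 genes nearest each member in pattern, shown for 5 members, with 1 gene not reported here. Members and lists were chosen with earlier results of these data known. Floors of 3 reads cover counting error only.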

Additional observations from a re-analysis of the deposited data

Results flagged for a closer look

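The 3 results here stood out because the change over time differed among domains within a genotype, by a limma F test with Benjamini-Hochberg adjustment. From D5 to D9 in WT NFIAn cells the adjusted p was 0.0037 for Fgf15 and 0.0048 for Etv4: Fgf15 went down further in pM than in p1 and was higher at D9 than at D5 in p2, and Etv4 went down most in p1 and least in pM. From D5 to D11 in MUT the adjusted p was 0.046 for Etv4. The MUT value is the weakest: over the libraries left out in turn it ranged from 0.02 to 0.23, passing 0.05 without MUT D5 p1 replicate 1 or 2, MUT D5 pM replicate 2 or 3, MUT D11 p1 replicate 2, or MUT D11 pM replicate 2 or 3, and over 8 alternatives it ranged from 0.0029 to 0.26 with 6 above the threshold. No group had more than 3 libraries, so single libraries were not screened as outliers.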

How the results depend on the processing

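Of 1062 values of single members over 116 comparisons and alternatives, 916 kept their direction and side of the threshold, 146 no longer passed and 0 reversed. Leaving out single libraries gave 1180 values, of which 977 held, 203 no longer passed and 0 reversed. From D5 to D11 over the mean of domains, Fgfr1, Fgfr3, Spry4, Dusp6 and Etv4 in WT passed under all 9 alternatives and without each library.

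Counts of members that moved by more than 1.5 times were these. For p2 minus p1 in WT (1), the count was 0 with a pseudocount of 8, with edgeR, with only the compared groups fitted and without the 18 libraries of high total, 3 with DESeq2, 2 with the replicate block, 4 with the replicate block within day and 3 with libraries of the same genotype, day and number treated as correlated (consensus correlation 0.375). For pM minus p2 in WT (1) it was 5 with the replicate block within day and 4 with correlated libraries. With only the compared groups, D11 minus D5 in WT pM gave 1, D9 NFIAn minus D7 gave 2 and MUT minus WT at D5 gave 1 (Fgf15). With the replicate block within day the NFIA gate gave 2 (Spry2, Dusp6) and MUT minus WT at D7 gave 2 (Fgfr1, Dusp6). With correlated libraries D7 minus D5 gave 2, D9 NFIAn minus D7 gave 2, D9 NFIAp minus D7 gave 1, D11 minus D9 NFIAp gave 1 and the F test from D5 to D11 in WT gave 2 (Fgf15, Etv4). A pseudocount of 8 gave 5 for D9 NFIAp minus D7. Without the 18 libraries D7 minus D5 gave 3, MUT minus WT at D5 gave 1 (Fgf15) and the F test gave 1 (Fgf15). The 3 comparisons that need MUT D9 p2 had no value there, or without its only library.

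With a library left out, counts ranged from 3 to 6 for D7 minus D5, 2 to 5 for D9 NFIAn minus D7, 2 to 5 for D9 NFIAp minus D7, 0 to 3 for D11 minus D9 NFIAp, 1 to 4 for D11 minus D5 in WT pM, 0 to 2 for p2 minus p1 and 1 to 2 for pM minus p2 in WT, and 0 to 1 for the F test from D5 to D11. The cause of these changes was not tested. Same-numbered libraries of a day deviated together (163 pairs, median r 0.165, lowest -0.004, 120 above 0.1). Those of different numbers did so less (290 pairs, median r -0.099, 33 above 0.1). The labels do not describe the numbers as pairs, and the main fit took the libraries as independent. Its counts of 0 for the NFIA gate and for MUT minus WT at D7 hold for that fit only. The replicate block results stand as alternatives. TMM scaling moved the median of all genes by -0.06 to 0.03. Depth limits Fgf8 and, at D11, Spry4.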
